A study of Mus musculus with 7 samples.

Results

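Cd44 encodes a transmembrane glycoprotein that binds hyaluronan, and the mouse gene lies on the minus strand of chromosome 2 at chr2:102811141-102901669 (GRCm38.p6, the assembly of mm10, 90.5 kb). The members described here are regions of JUNB binding around it. Peaks from 4 deposited JUNB lists were joined where they shared at least 1 bp, and a region was kept where its summit, the base of highest signal, lay in the Cd44 body or within 100 kb of either end. The window chr2:102711141-103001669 (291 kb) held 12 of the 12655 joined regions of the whole series, and they are numbered 1 to 12 by rising coordinate. Because the gene is read toward lower coordinates, regions 2 to 6 lie inside it, region 7 at its start, regions 8 to 12 upstream and region 1 beyond its end. The locus was chosen by its number of regions called in all 4 lists, so presence in the lists is a description here and supports nothing.

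JUNB was mapped by CUT&RUN, in which an antibody tethers a nuclease that releases DNA next to the bound protein. The cells were the line iMGT-Myh6-eGFP-MEF, mouse embryonic fibroblasts that express Mef2c, Gata4 and Tbx5 (MGT, transcription factors of the heart) when doxycycline (1 μg/mL) is given, and that carry a Myh6-eGFP reporter. By titles and treatment labels, 2 libraries received a control siRNA (siControl) and 2 an siRNA against Chst7, a chondroitin sulfotransferase gene (siChst7); all 4 were doxycycline-induced and collected at day 1. The labels' transfection text lists siJunb, siH1f0 and siControl and leaves out siChst7. Which siRNA a library received therefore rests on the titles and treatment labels. The labels give no origin of the fibroblast line beyond its name. They speak of biological replicates without saying that cultures were separate. Each p-value below thus compares these libraries only and does not measure their spread, and the variation between them may be technical. Antibody background is not given beside the values, because the 3 IgG libraries were not analysed here. No expression values were at hand, so neither the level of Cd44 nor the fibroblast identity of the cells could be checked.

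JUNB is a subunit of AP-1, a dimer of Jun and Fos family proteins that binds short palindromic sites, often in enhancers far from gene starts, and that switches on genes in growing, stressed or migrating cells. CD44 is made by fibroblasts and other mesenchymal cells, anchors them to hyaluronan in the matrix, is linked to actin inside the cell by ezrin, radixin and moesin, and is cut from the surface by metalloproteinases. Some of its spliced forms carry chondroitin sulfate or heparan sulfate chains.

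JUNB peaks of all 4 libraries joined into 6 shared regions around Cd44. Of 12 regions, 6 (50%) were called in all 4 lists, against 22.0% of all regions, and these were regions 2, 4, 6, 9, 10 and 12. Regions 1 and 11 were in 3 lists and region 7 in 2. Regions 3, 5 and 8 were in 1 list (25%, against 46.7% of all regions). Each of these 3 was in siChst7 replicate 1, which has the longest list and holds 62.4% of all regions of a single list. No region of the window was called in both libraries of a siRNA group while missing from both of the other, a pattern that 1.60% of all regions show for siControl and 3.88% for siChst7. Region 1 was missing from siChst7 replicate 2 and region 11 from siControl replicate 2, so that each was called in 3 of the 4 libraries. In lists of equal length, made by keeping the best peaks by q, region 1 became siControl-only and region 11 siChst7-only. Region 6 was then left in 2 lists, siControl replicate 2 and siChst7 replicate 2. The share of all regions that are group-only at equal list length is not given here, so nothing is read from these changes.

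**Figure D1:**
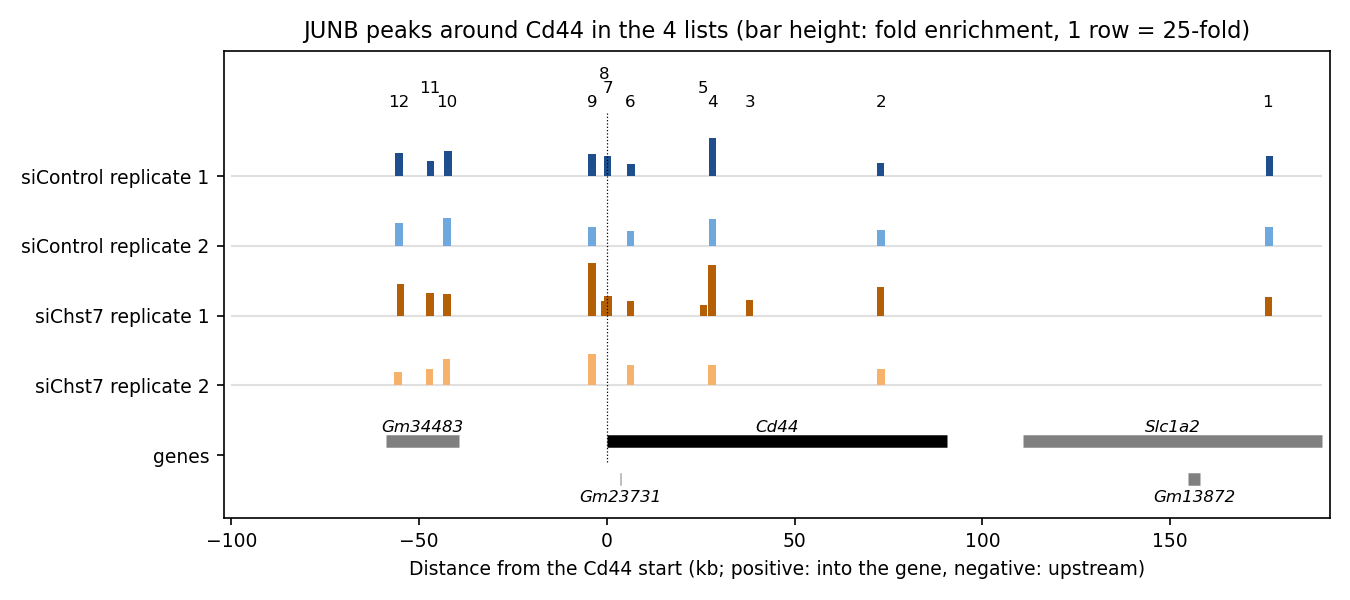
JUNB peaks by distance from the Cd44 start in kb (x axis, positive into the gene), with a row for each list, bar height showing fold enrichment and gene bodies at the bottom; bars are drawn wider than the peaks, and numbers above are region numbers. Regions 2, 4, 6, 9, 10 and 12 appear in all 4 rows, and siChst7 replicate 1 has a bar at every region.

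Regions 2 to 9 lay from inside the gene to just before its start, regions 10 to 12 further upstream, and region 1 alone beyond the end of the gene. Among regions in all 4 lists, neighbouring summits were 10.3 to 44.9 kb apart with a median of 21.7 kb. Short distances follow from the choice of the locus for its number of common regions. Over all 12 regions, distances ran from 0.950 kb, between regions 7 and 8, to 103 kb, between regions 1 and 2. Regions 2, 4 and 6 lay 73.0, 28.1 and 6.32 kb downstream of the Cd44 start, inside the gene. Region 9 lay 3.96 kb upstream of it, with no annotated gene over it. Regions 10, 11 and 12 lay 42.6, 47.1 and 55.3 kb upstream, inside Gm34483, a long non-coding RNA gene at chr2:102941062-102960573. Whether a region lies in an exon or an intron was not analysed here.

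Region 4, at chr2:102873031-102873961 inside Cd44, was among the strongest of the locus in the siControl lists. The authors' fold enrichment at its summit was 13.7 in siControl replicate 1 and 9.73 in siControl replicate 2, and 18.2 in siChst7 replicate 1 and 7.44 in siChst7 replicate 2. The siChst7 lists gave both the highest and the lowest value, and the groups overlapped. Within each list the peak stood at the 92.6th, 82.4th, 96.7th and 60.9th percentile of fold, in the same order. Its summits lay within 41 bp of each other, a spread that 7.47% of the 2785 common regions match or undercut.

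Region 9, at chr2:102905423-102906347, is the common region nearest to the Cd44 start. Its folds were 8.11 and 6.77 in siControl replicates 1 and 2, and 19.0 and 11.4 in siChst7 replicates 1 and 2. Both siChst7 values were above both siControl values, and they were the highest of the locus in their lists. The percentiles were 67.3 and 52.7 in siControl and 97.1 and 89.3 in siChst7. A fold is the peak's own value over a background whose source is not given. It comes from lists of 6469 and 5827 siControl and 10163 and 4735 siChst7 peaks, and does not compare binding strength between libraries. Of all common regions, 21.9% had folds that did not overlap with siChst7 above, and 12.6% with siControl above. In the Cd44 window these were 2 of 6 and 0 of 6, close to those shares for so few regions. The summits of region 9 lay within 59 bp.

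Region 2, at chr2:102828038-102829079, was the other region with folds that did not overlap. It had 4.91 and 5.62 in the siControl lists and 10.4 and 5.96 in the siChst7 lists. The value of siChst7 replicate 2 was close to those of siControl, and siChst7 replicate 1 stood apart. It is the common region deepest in the gene, nearer to the end of Cd44 than to its start.

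Region 6, at chr2:102894992-102895631, 6.32 kb into the gene, was the weakest common region in 3 lists. Its folds were 4.25 and 5.34 in siControl and 5.31 and 7.13 in siChst7, in replicate order. The groups overlapped by a narrow margin, and by percentile within the lists (3.42 and 22.8 against 26.7 and 57.8) they did not. By percentile 3 of 6 common regions, 2, 6 and 9, did not overlap with siChst7 above, against 22.5% of all common regions.

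Region 10, at chr2:102943637-102944608, was the most even of the 6. Folds were 9.19 and 9.94 in siControl and 7.89 and 9.54 in siChst7. It was the region of highest fold in siControl replicate 2, and the groups overlapped. Its summits were 397 bp apart, and that of siControl replicate 1 stood away from the other 3.

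Region 12, at chr2:102956418-102957345, had folds of 8.31 and 8.29 in siControl and of 11.4 and 4.92 in siChst7. The siControl values were alike, and the siChst7 values lay on either side of them. In siChst7 replicate 2 this was the lowest fold of the window. The summits spread over 578 bp, and 12.5% of all common regions have as large a spread. With peaks reduced to the summit and 100 bp on each side, regions 10 and 12 no longer joined across the 4 lists and 4 common regions remained, which were regions 2, 4, 6 and 9.

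**Figure D2:**
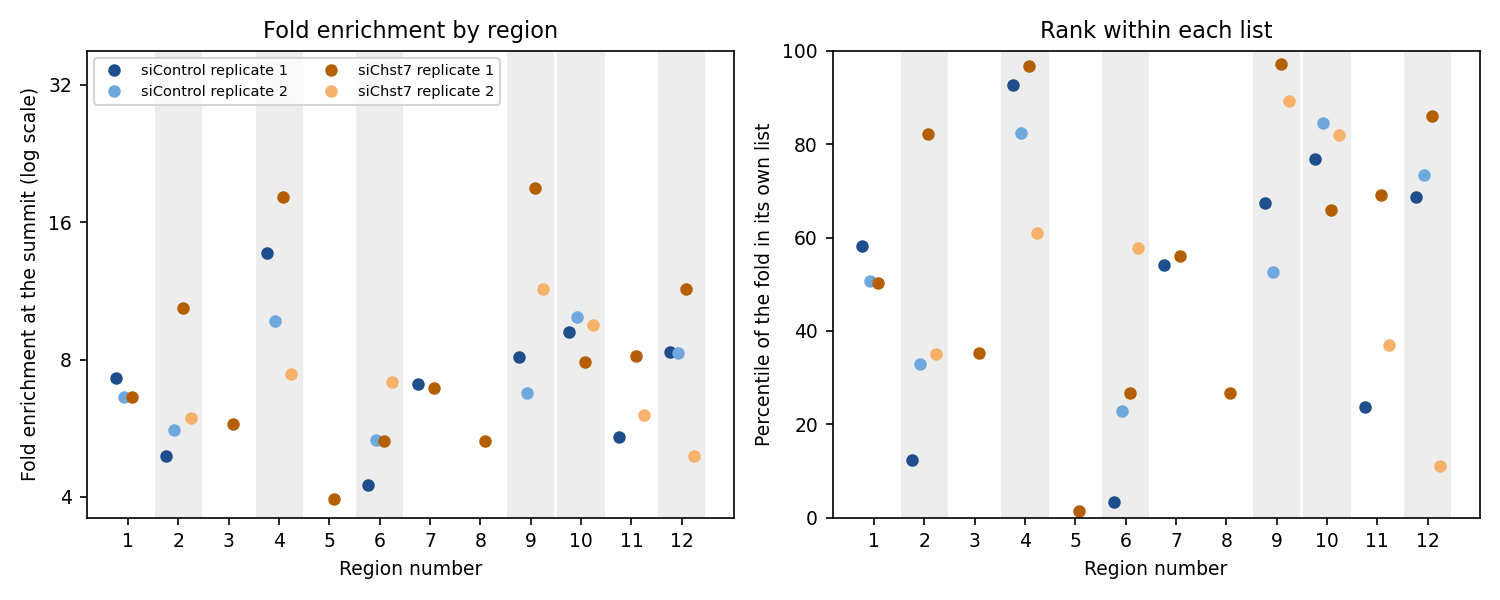
Left, the authors' fold enrichment of every peak (y axis, log scale) by region number; right, the percentile of that fold in its own list; each point is 1 peak and grey columns mark regions in all 4 lists. In regions 2 and 9 both siChst7 points lie above both siControl points, and in regions 4 and 12 the siChst7 points lie on either side of the siControl points.

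The remaining regions, called in fewer lists, had folds of 3.96 to 8.14. Region 11, at chr2:102947854-102949266, was the widest of the window at 1413 bp. Its fold was 5.42 in siControl replicate 1, and the siChst7 lists gave 8.14 and 6.04. The siControl peak covered 373 bp, with its upper end below the summits of the siChst7 peaks. With 50% reciprocal overlap it no longer joined the other peaks, so that region 11 became siChst7-only. The share of all regions that are siChst7-only at that overlap is not given here, so nothing is read from this change. Region 1, at chr2:102725024-102725713, lay inside Slc1a2 and 176 kb from the Cd44 start, with folds of 7.29, 6.63 and 6.61 in siControl replicates 1 and 2 and siChst7 replicate 1. Regions 3, 5 and 8 had folds of 5.77, 3.96 and 5.31 in siChst7 replicate 1. Region 5 stood at percentile 1.53 of fold in that list, with a −log10 q of 2.08.

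Region 7, at chr2:102901222-102901744, is the region over the Cd44 start (base 102901665 by the RefSeq promoter entry). It was called in replicate 1 of each group, with folds of 7.09 in siControl and 6.94 in siChst7, and in neither replicate 2. The replicate 1 lists are the longer ones of their groups. The siControl peak ended 55 bp inside the gene, and the siChst7 peak reached 79 bp before the start. The 250 bases before the start are shown because the siChst7 replicate 1 peak of region 7 reaches into them. They lie at chr2:102901666-102901915 on the minus strand (RefSeq, GRCm38.p6) and are written 5′ to 3′, with the 79 bases under the siChst7 replicate 1 peak in capitals.
Cd44 promoter: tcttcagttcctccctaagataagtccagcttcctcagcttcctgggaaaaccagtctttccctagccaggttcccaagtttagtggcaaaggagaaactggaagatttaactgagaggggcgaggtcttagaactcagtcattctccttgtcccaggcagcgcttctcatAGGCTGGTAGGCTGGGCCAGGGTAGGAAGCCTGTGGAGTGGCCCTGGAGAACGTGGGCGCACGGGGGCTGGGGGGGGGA
No copy of the AP-1 site TGACTCA, of the looser TGANTCA or of the related TGACGTCA was found on either strand of the 300-base RefSeq promoter, which adds the first 50 bases of the gene. TGANTCA includes TGACTCA. The looser site stands in 7.81% of 32851 RefSeq promoters of that length, and in 23.9% of the 289 promoters that overlap a region in all 4 lists. The stricter TGACTCA stands in 5.20% and 21.1%, and TGACGTCA in 1.79% and 5.19%. A missing match says only that these letters are not in this window. The summits of region 7 lay 0.235 kb (siControl replicate 1) and 0.302 kb (siChst7 replicate 1) into the gene, outside the 300 bases. The sequence at these summits was thus not searched. Region 7 was in 2 lists, so the promoters under regions in all 4 lists are not its like. The Cd44 promoter has a GC content of 58% (median of all promoters 52.7%) and 6 CG dinucleotides (median 7). Sequences of the common regions 2, 4, 6, 9, 10 and 12 were not used here.

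The common regions of the locus had a median width of 930 bp, against 925 bp for all 2785. The median spread of summits was 144 bp, against 209 bp. By the mean percentile over the 4 lists, the median common region of the window stood at 68.2 for fold and 73.7 for width, against 67.8 and 67.7 over all common regions. In 5 of 6 common regions the widest peak was that of siChst7 replicate 1, as in 57.3% of all common regions. The exception was region 6, with 499, 364, 392 and 452 bp in list order. The highest fold was in siChst7 replicate 1 in 4 of 6, against 54.9% of all.

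**Figure D3:**
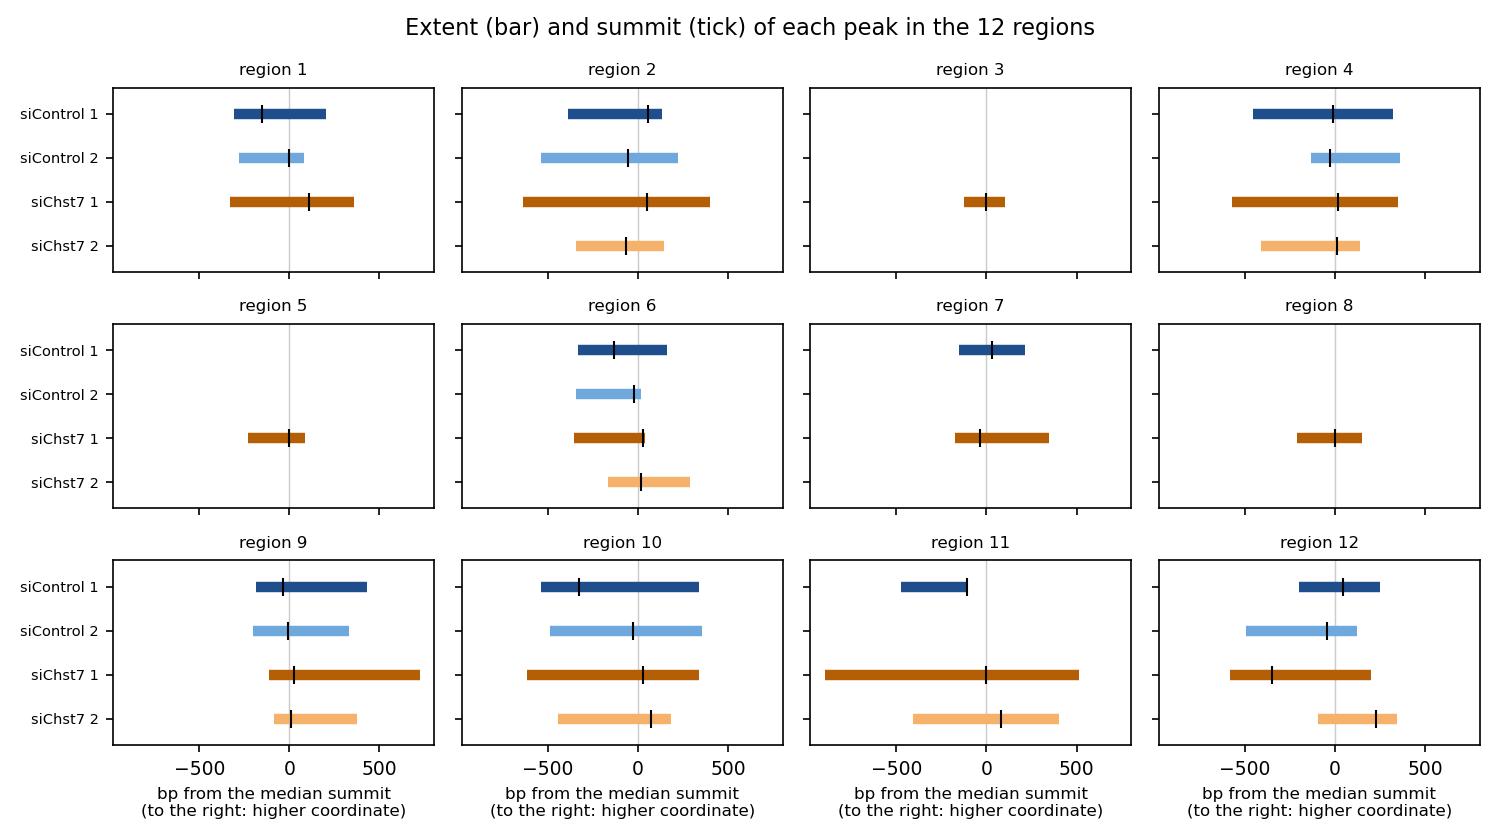
Extent (bar) and summit (tick) of each peak in the 12 regions, as bp from the region's median summit along the x axis, with a row for each list. Summits line up in regions 4 and 9, spread most in regions 10 and 12, and the siControl peak of region 11 ends below the siChst7 summits.

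The number of regions around Cd44 was highest in the longest list. The window held 9 and 7 regions in siControl replicates 1 and 2 (mean 8 ± 1.41, SD, n = 2) and 12 and 7 in siChst7 replicates 1 and 2 (mean 9.50 ± 3.54, SD, n = 2). The siChst7 libraries were at the highest and at the joint lowest value, and the groups overlapped. The difference of 1.50 regions gave a two-sided exact permutation p of 1 (n = 2 a group), and the smallest p that 4 libraries allow is 0.333. Without siChst7 replicate 1 the difference was −1. Per 1000 peaks of the list, the window held 1.39 and 1.20 peaks in siControl (exact Clopper-Pearson 95% intervals 0.636 to 2.64 and 0.483 to 2.47, counting error only). In siChst7 it held 1.18 (0.610 to 2.06) and 1.48 (0.595 to 3.04). On this scale siChst7 replicate 1, with the most peaks, was the lowest of the 4. The means were 1.30 ± 0.134 and 1.33 ± 0.210 (SD, n = 2 each), a difference of 0.0333 with an exact permutation p of 1. The difference turned to −0.0617 without siControl replicate 2 and to −0.116 without siChst7 replicate 2. The common regions for which the locus was chosen count in every list, and the intervals treat peaks as independent draws. Intervals and p-values for this window, here and below, are thus descriptions, and nothing is read from them.

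Peaks covered 4996 and 3978 bp of the window in siControl (mean 4487 ± 720, SD, n = 2) and 8461 and 3830 bp in siChst7 (mean 6146 ± 3275). The covered share of the window was 1.72% and 1.37% in siControl and 2.91% and 1.32% in siChst7. Again siChst7 replicate 1 was the highest library and siChst7 replicate 2 the lowest. The difference of 1658 bp had an exact permutation p of 1 (smallest possible 0.333), and without siChst7 replicate 1 it was −657 bp. The median width of the window's peaks was 512, 533, 735 and 485 bp in list order, against 423, 376, 446 and 405 bp for the whole lists.

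Any pair of lists shared most of its regions at this locus. The siControl pair shared 7 of 9 regions (77.8%, against 49.0% over the whole series) and the siChst7 pair 7 of 12 (58.3%, against 37.6%). Mixed pairs shared between 58.3% and 77.8% (41.4% to 44.6% over the whole series). These shares follow in part from the choice of the locus for its common regions.

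Neighbour genes in the window held 4 of the 12 regions. Slc1a2, which encodes a glutamate transporter of astrocytes, lies 20.4 kb from Cd44 and has 79.6 kb of its 133 kb in the window. Region 1 is the only region in its whole body. Gm34483, 39.4 kb upstream of Cd44, holds regions 10, 11 and 12, with 2 of them in all 4 lists. Its starts lay 3.29 and 2.03 kb from the summit of region 10 (from the centre of each RefSeq promoter), and no region overlapped them. Gm13872, a long non-coding RNA gene within Slc1a2, and Gm23731, a small nuclear RNA gene within Cd44, held 0 regions. The next gene above the window, Pdhx, encodes a subunit of the pyruvate dehydrogenase complex. The nearer end of its body lies 119 kb from the Cd44 body, and it held 0 regions in its body.

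The window edges cut through empty stretches. The outermost regions inside were region 1, 14.2 kb from the lower edge with folds of 6.61 to 7.29, and region 12, 44.7 kb from the upper edge with folds of 4.92 to 11.4. The nearest region below the window lay 203 kb outside it (chr2:102507579-102508461, all 4 lists, folds 7.50 to 9.91). The nearest above lay 17.8 kb outside (chr2:103019360-103019567, siChst7 replicate 1 alone, fold 4.61).

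Counted by the same window rule, 37 of 21887 protein-coding genes (0.169%) had at least 6 regions in all 4 lists. Cd44 was among 25 genes with 6, 12 genes had more, and the highest count was 11. The median gene had 0. Neighbouring genes share regions in this count, and longer genes have longer windows. Among the 19146 genes whose window is no longer than that of Cd44, 24 (0.125%) had at least 6. Nothing is read from this rank, since Cd44 was chosen for it.

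**Figure D4:**
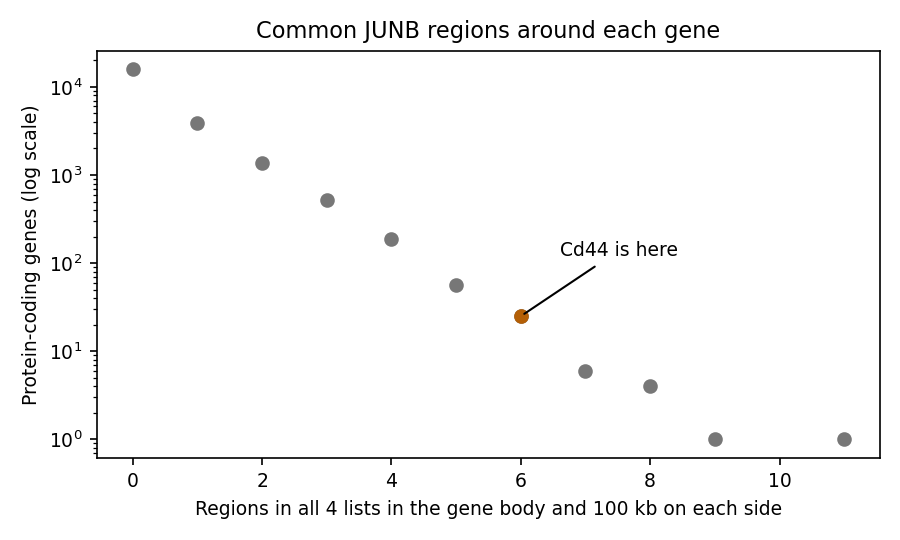
Number of protein-coding genes (y axis, log scale) by the number of regions in all 4 lists within the gene body and 100 kb on each side (x axis). The orange point holds Cd44 and 24 other genes with 6 regions.

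Cd44 was set beside 5 other genes, named beforehand as having as many common regions when counted by nearest gene end. By the window rule 37 genes, Cd44 among them, had at least 6, so these 5 are not the full set. The 6 common regions of Cd44 gave 2.07 per 100 kb of window. Capn2, a calpain protease gene, had 6 in a 250 kb window (2.40 per 100 kb), and Irf2bp2, a transcriptional corepressor gene, 6 in 206 kb (2.92). Arid5b had 7 (1.81), Bach2, a bZIP repressor gene, 7 (1.28), and Lpp, a focal adhesion gene, 8 (1.00). At Cd44, 3 of the 6 lay inside the gene, against 6 of 7 at Arid5b, 3 of 7 at Bach2, 2 of 6 at Capn2, 0 of 6 at Irf2bp2 and 6 of 8 at Lpp. Folds of common regions ran from 4.25 to 19.0 at Cd44. They reached 33.6 at Capn2, 24.9 at Arid5b, 21.9 at Bach2, 16.0 at Lpp and 15.8 at Irf2bp2. The Cd44, Bach2 and Capn2 windows held 0 regions confined to both lists of a siRNA group. Arid5b held 2 siChst7-only regions of 19, Irf2bp2 2 of 20 and Lpp 3 of 28, against 3.88% of all regions. None of these 3 windows held a siControl-only region, against 1.60% of all regions. These differences between loci were not tested.

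**Figure D5:**
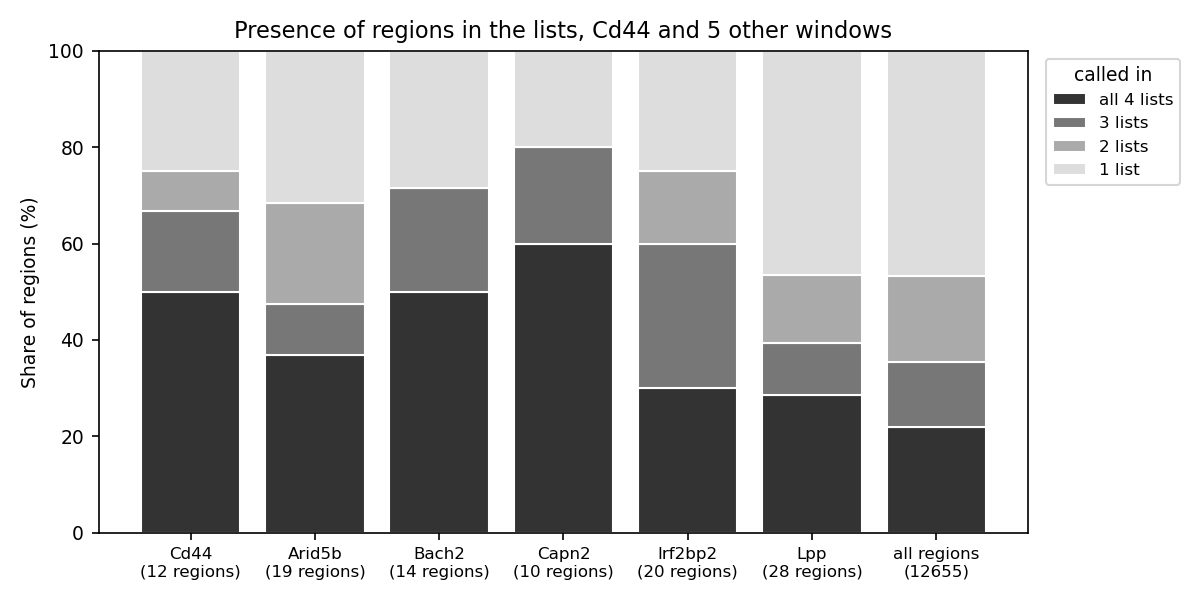
Share of the regions of each window (y axis, percent) that were called in all 4, 3, 2 or 1 of the lists, for Cd44, 5 other genes and all 12655 regions. The share in all 4 lists is 50% at Cd44 and Bach2, 60% at Capn2, 36.8% at Arid5b, 30% at Irf2bp2, 28.6% at Lpp and 22.0% over all regions.

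Other genes of the hyaluronan and CD44 pathway had at most 3 common regions. Cd44, with 6, was chosen for its count, so nothing is read from that difference. By the same rule, 16 of 40 genes (40%) had at least 1 region in all 4 lists, against 27.5% of protein-coding genes, and the median was 0 in both. A further 20 had regions in some lists, and Spam1, Vcan, Hapln1 and Esrp2 had none. The 16 genes share 15 regions, since Hyal1, Hyal2 and Hyal3 stand together, as do Bcan and Hapln2.

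Among hyaluronan synthases, Has1 had 3 common regions, the most of the list. A region in the Has1 body (chr17:17837436-17838452) had folds of 8.29 to 17.9 over the 4 lists, a second (chr17:17845270-17846315) 6.14 to 8.13, and another, 41.1 kb away, 4.20 to 15.6. Has2 and Has3 had 3 and 6 regions, and 0 in all lists. Among genes of hyaluronan breakdown, 5 of 6 had a common region, though Hyal1, Hyal2 and Hyal3 count for the same one. Of all protein-coding genes, 27.5% have one. With so few genes, nothing is read from the counts by role, here or below. The hyaluronidase genes Hyal1, Hyal2 and Hyal3 shared chr9:107555258-107556493, with folds of 6.02 to 8.46, which is 12.1 kb from Hyal2. Cemip2, a cell surface hyaluronidase gene, had a region in its body with 7.18 to 9.66, and Cemip a region 31.2 kb away with 6.56 to 9.02.

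Of the other hyaluronan receptors, 3 of 5 had a common region. That near Stab2 (62.5 kb away) had folds of 14.2 to 20.1, the region near Lyve1, a lymphatic receptor gene, 5.05 to 13.8 at 76.6 kb, and that near Layn 4.42 to 6.61 at 93.3 kb. Hmmr and Stab1 had none in all lists. Of 14 matrix ligands and cross-linkers, 3 had a common region. Spp1, which encodes the CD44 ligand osteopontin, had a region 54.1 kb away with folds of 4.43 to 8.37, and Bcan and Hapln2 shared a region with 5.04 to 8.59.

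Of 5 genes for cytoplasmic linkers and their inhibitor, 3 had a common region. Ezr, the ezrin gene, had a region 44.9 kb away with folds of 9.26 to 14.2. Msn, the moesin gene, had a region in its body with 5.08 to 8.20, and Ank3, an ankyrin gene, a region in its body with 7.09 to 14.8. Rdx, the radixin gene, had 1 region in 1 list, and Nf2, whose product merlin opposes these linkers, 2 regions and 0 in all lists. Among sheddases, which cut CD44 from the surface, Adam17 had a common region in its body with folds of 6.94 to 7.78, and Mmp14, Mmp9 and Adam10 had 0. The splicing regulators Esrp1, Esrp2 and Khdrbs1 had 0 of 3.

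Some pathway genes had regions called in both lists of 1 siRNA group and in neither list of the other. Regions called in the siChst7 lists alone, both of them, lay in Ezr (folds 4.27 and 4.54), Msn (5.05 and 5.35) and Mmp14 (5.19 and 6.31), and 54.7 kb from Adam10 (6.04 and 8.65). That of Msn (chrX:96122817-96123403) lies just above the common region in Msn (chrX:96121753-96122654). Whether it is a separate site was not tested. Regions called in both siControl lists alone lay 62.1 kb from Adam10 (4.97 and 5.93) and 91.8 kb from Ncan (5.15 and 8.08). In all, 4 of 40 genes had a siChst7-only region, against 6.47% of protein-coding genes, and 2 of 40 a siControl-only region, against 3.20%. With so few genes these counts are near the background, and nothing is read from them.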

How the data were processed

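The 4 deposited JUNB peak lists were used, 2 for each siRNA group. Bowtie2, MACS3 and mm10 stand, with no stated roles, in the submitters' processing notes; tool versions, settings and the control library are not given in the sources used here. Each list holds the peaks of 1 library, per the names of the deposited peaks. For a peak the authors deposited its ends and summit, its p-value and q-value (both −log10), and a score that restates the q. They also gave its fold enrichment, a ratio over a background whose source is not given. The score and the p-value were not analysed. Starts were converted to 1-based coordinates. Depth is unknown here beyond the 30 M reads that the labels state.

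Peaks overlapping by at least 1 bp were joined within and across lists, and a region's position is the median of its summits. Genes, gene names and the Cd44 promoter came from RefSeq tables of GRCm38.p6; all 40 pathway genes matched by symbol. Genome sequence outside promoters was not used here, so no sequence stands beside distal regions. Group means were compared by two-sided exact permutation over the 4 libraries. The regions named are all of the window, and of the pathway list those genes with a region in all 4 lists; genes without one, and genes with group-only regions, were named in addition after their values were seen. The members and lists were chosen with earlier results of these data known. Alternatives were to join at 50% reciprocal overlap or by summits with 100 bp on either side, to keep peaks with q up to 0.001, with fold 5 or more, or in equal number from each list, to take 50 kb around the gene or its body alone, to leave out each library, and to use a replicate block. Joining and counting were tested on simulated lists whose regions stood well apart, so the handling of close or split regions was not tested. Scripts ran in Python 3.11.15 with pandas 2.3.3 and NumPy 2.4.6, intervals came from SciPy 1.17.1, and plots from Matplotlib 3.10.9.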

Additional observations from a re-analysis of the deposited data

How the results depend on the processing

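The count of 6 common regions at Cd44 stayed within 1.5 times in 9 of 11 alternatives. Among these 9 it was 4 with summits and 100 bp on each side, at that limit. It was 5 at equal list length and with 50 kb around the gene. The count fell to 3 with a fold of at least 5, which kept regions 4, 9 and 10, and to 3 in the Cd44 body alone. It was 6 to 7 when 1 library was left out (a region then needs 3 lists). Regions 4 and 9 stood in every list under each alternative whose window holds them. The count of siChst7-only regions, 0 at first, was 1 with 50% reciprocal overlap and 1 at equal list length (region 11 in both), and 0 to 3 without 1 library. The 3 were regions 3, 5 and 8 without siChst7 replicate 2, when siChst7 replicate 1 alone stood for its group. The count of siControl-only regions, also 0, was 1 at equal list length (region 1) and 0 to 1 without 1 library. Shares of all regions that are group-only under these alternatives are not given here, so nothing is read from these counts. The difference in regions was 0 at equal list length and −1 to 4 without 1 library. The difference per 1000 peaks was −0.0340 with a q of at most 0.001, 0 at equal list length and −0.116 to 0.182 without 1 library. The difference in covered bp was −657 to 3974 without 1 library, and it kept its direction in the other alternatives. The median distance between common regions, 21.7 kb, was 35.3 kb with a fold of at least 5 and at equal list length, 33.3 kb in the Cd44 body alone and 16.0 to 30.2 kb without 1 library, and it stayed within 1.5 times in 8 of 11 alternatives. With a replicate block the 3 differences were 1.50 regions, 0.0333 peaks per 1000 and 1658 bp (exact permutation within pairs, p = 1 in each, smallest possible 0.5). Over 2785 common regions, the replicate differences of the groups in fold percentile correlated at 0.048. Percentiles within a list take out shifts of whole lists, so this value cannot show a batch that shifts a list as a whole. It bears only on differences by region that libraries with the same number share. Whether such libraries share a batch was not tested. Where a cause is not in an alternative's own construction, the cause was not tested. With 2 libraries a group no test could pass the threshold. Peak lists do not give depth, so its part in which weak regions were called was not tested.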

Other observations

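Fold enrichments in these lists take a limited set of values. The 6469, 5827, 10163 and 4735 peaks held 1139, 1050, 1410 and 845 distinct folds, and 90.6% to 93.5% of peaks shared theirs with another peak of the list. At Cd44, 9 of 9, 7 of 7, 10 of 12 and 7 of 7 peaks did so. Regions 6 and 8 had the same fold of 5.31 in siChst7 replicate 1, which 77 peaks of that list hold. Ranks of fold within a list thus hold many ties.

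In 2 peaks of the window the summit lay less than 10 bp from a peak edge, in siControl replicate 1 at region 11 and in siChst7 replicate 1 at region 6. Between 0.866% and 1.21% of peaks in the lists have such a summit.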
